A study of Mus musculus with 6 samples.

Results

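Synapses are held together by adhesion proteins that reach across the cleft and by scaffold proteins that gather receptors beneath the postsynaptic membrane. Neurexins on the presynaptic side bind neuroligins, leucine-rich repeat proteins (LRRTM) and, through cerebellins, glutamate receptors, while SLITRK, SALM (*Lrfn*) and SynCAM (*Cadm*) proteins form further bridges. Inside the cell, DLG proteins of the PSD-95 family bind adhesion proteins and receptors through PDZ domains, and SAPAP (*Dlgap*), SHANK and Homer proteins link DLG to the actin cytoskeleton at excitatory synapses. Gephyrin is the scaffold of inhibitory synapses, and CASK with a LIN7 protein forms a complex that binds neurexins and sorts membrane proteins in polarised cells. The question here was how the mRNAs of 44 such genes stood after knockdown of *Paupar*, a long noncoding RNA made from a locus upstream of *Pax6*. The genes were taken as a list of symbols. Transcript clusters whose platform annotation gave exactly one of those symbols were used, and the cluster with the highest mean over the 6 arrays was kept for each gene. This gave 43 genes out of 19938 measured with one symbol. *Cadm2* was not matched to a cluster and was not analysed here.

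The cells were N2A, a mouse neuroblastoma line with features of sympathetic neurons, kept in DMEM containing 10% fetal bovine serum. Control cultures received a non-targeting vector (n = 3 arrays) and knockdown cultures a *Paupar* knockdown construct that expresses a short hairpin RNA (n = 3 arrays), in both cases 1.5 µg by transient transfection, with total RNA taken 2.5 days later. Transfection was transient, so each RNA sample came from a whole well, whatever share of its cells carried the vector. The series' design text calls the replicates biological, and the labels do not say which culture each came from. All values are on the log2 scale of the deposited RMA table, and the number of arrays per group limits their precision.

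The arrays were alike in level, with medians over all genes between 7.85 and 7.92. Knockdown replicate 3 was less like the other knockdown arrays (mean correlation across genes 0.9954) than knockdown replicates 1 and 2 were (0.9966 and 0.9967), and its mean correlation with the controls was 0.9948 against 0.9926 and 0.9921 for those. Control replicate 1 had the lowest mean correlation with the other controls (0.9945). Calls among the synaptic genes below are therefore also given with arrays left out, while those among cell markers are not. *Paupar* itself had no annotated cluster, so the depth of the knockdown was not analysed here. The neuroblast genes *Hand2* and *Phox2a* stood at 12.04 and 10.31 in controls, but the values carry no detection call, so whether a gene was expressed at all cannot be read from them. The arrays measure mRNA in the whole culture, where fewer cells of a kind and less RNA per cell cannot be told apart.

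Of the synaptic genes, 5 fell upon *Paupar* knockdown and none rose. *Cntnap1*, an axonal adhesion protein, was 1.55-fold lower, the scaffold genes *Dlg2* and *Gphn* were 1.44-fold and 1.43-fold lower, and the partners *Lin7c* and *Cask* were 1.37-fold and 1.36-fold lower. Of the 43 genes, 24 passed the filter on variation between arrays and were tested, 19 of these did not pass, and the other 19 genes had been removed by the filter. The 5 that fell were 20.8% of those tested, while 5.16% of all tested genes fell, 2.39% rose and 7.54% changed in either direction (limma, Benjamini-Hochberg adjusted p under 0.05 over 9969 genes). The filter keeps genes that vary, so the genes it kept do not stand for the list. At an unadjusted limma p under 0.05, 7 of the 43 were lower (16.3%) and 1 was higher (2.33%), beside 7.89% and 6.03% of all 19938 genes. For these shares, genes past the filter took p from the filtered fit and the others from a fit to all genes. Over all 43 genes the median difference was 0.01 on the log2 scale, beside 0.03 over all 19938 genes, with 20 of the 43 lower and 23 higher, where 41.6% of all genes were lower.

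**Figure D1:**
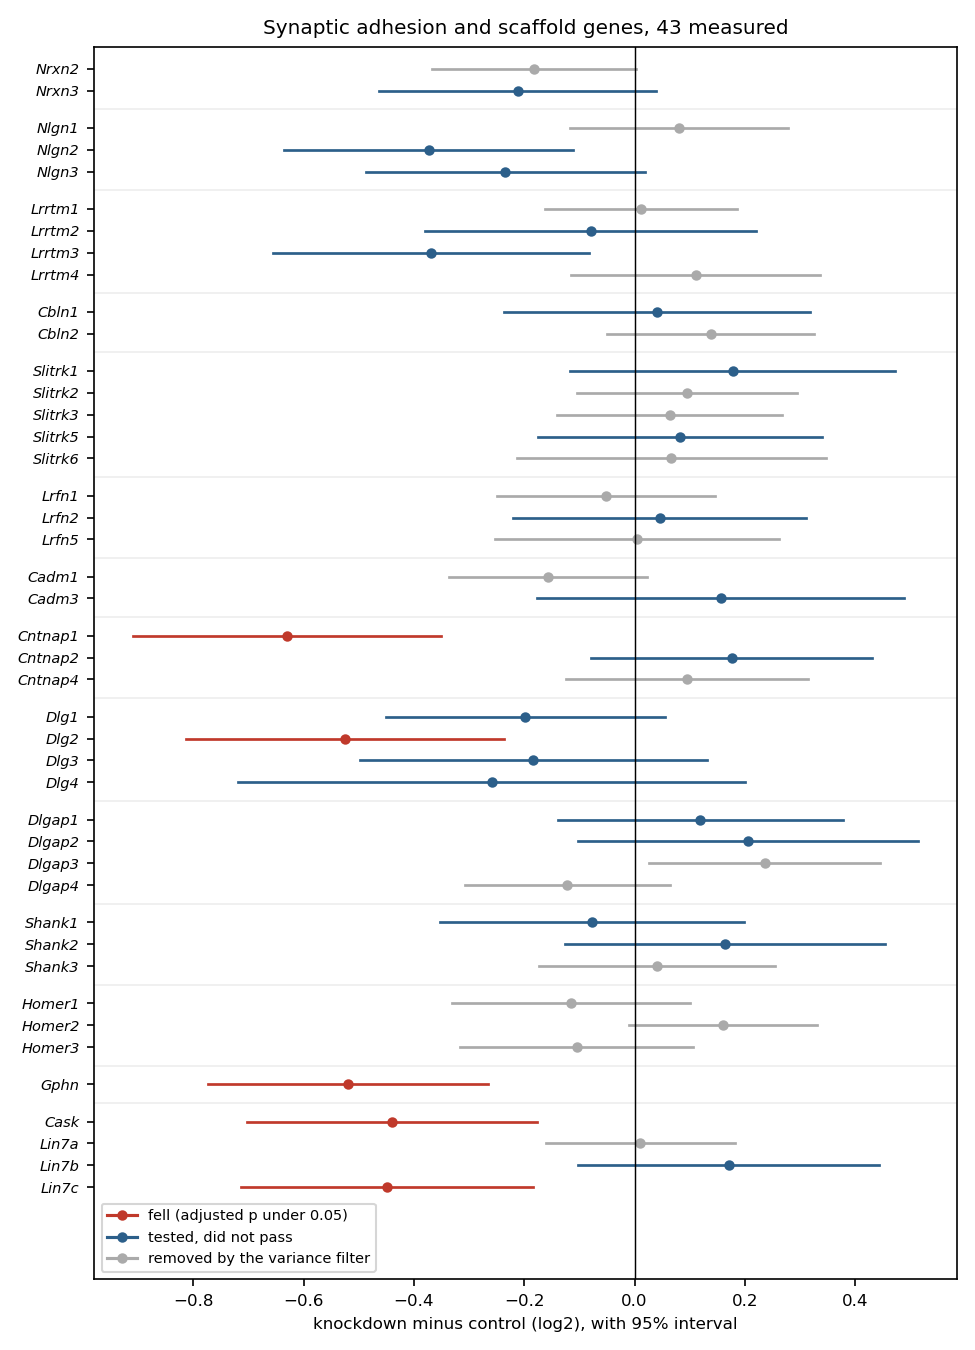
Difference in mean log2 level, knockdown minus control (x axis), with its 95% interval from limma for the 43 genes in order of role (y axis); red, fell; blue, tested and did not pass; grey, removed by the variance filter, with the interval from the fit to all genes. The intervals of the 5 genes in red lie wholly below 0, as do those of *Nlgn2* and *Lrrtm3*, and *Cntnap1* lies farthest at -0.63.

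The values of the 3 knockdown arrays all lay below the 3 control values for 12 of the 43 genes (27.9%), where this held for 10.8% of all genes. They all lay above for 3 of the 43 (6.98%), against 12.8% of all genes. The 12 were *Nrxn2*, *Nrxn3*, *Nlgn2*, *Nlgn3*, *Lrrtm3*, *Cadm1*, *Cntnap1*, *Dlg1*, *Dlg2*, *Gphn*, *Cask* and *Lin7c*, and the 3 were *Cbln2*, *Dlgap3* and *Homer2*. The SLITRK, SALM, cerebellin, SAPAP, SHANK and Homer groups held none of the 12.

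Among the adhesion genes, *Cntnap1* fell. It encodes CASPR, which joins contactin and neurofascin where myelin attaches beside the node of Ranvier. Control arrays 1 to 3 read 8.94, 9.06 and 8.83 (log2), and knockdown arrays 1 to 3 read 8.53, 8.17 and 8.24. Knockdown replicate 1 was nearest to the controls, and the groups did not overlap. The difference was -0.63 (SE 0.13, 95% interval -0.91 to -0.35, limma adjusted p = 0.0131). It missed the threshold without control replicate 1 (adjusted p = 0.0519), control replicate 3 (0.0615) or knockdown replicate 2 (0.0842), with differences between -0.74 and -0.56 over the 6 fits that each left out one array. Neither relative on the list was called. *Cntnap2*, which clusters potassium channels next to the paranode, differed by 0.18 (interval -0.08 to 0.43, adjusted p = 0.352). *Cntnap4* differed by 0.09 (interval -0.12 to 0.31, not tested) at a low control mean of 6.47. Of the partners of CASPR, *Nfasc* (neurofascin) fell 1.48-fold, from 8.14 ± 0.12 to 7.58 ± 0.19 (mean ± SD, n = 3 per group, limma adjusted p = 0.0209). *Cntn1* (contactin 1) differed by 0.10 (interval -0.13 to 0.33, not tested) at a low control mean of 5.81.

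Both neurexins were lower on every knockdown array, but by little. *Nrxn3* read 6.88, 6.65 and 6.78 in controls and 6.51, 6.59 and 6.58 after knockdown, a difference of -0.21 (interval -0.46 to 0.04, limma adjusted p = 0.257). *Nrxn2* differed by -0.18 (interval -0.37 to 0.00197) and had been removed by the variance filter. Neither was called changed.

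Of the neuroligins, which bind neurexins from the postsynaptic side, *Nlgn2* came nearest to the threshold among those of the 43 genes that missed it. This neuroligin acts at inhibitory synapses, where it binds gephyrin. Controls read 9.72, 9.49 and 9.59, and knockdown arrays read 9.17, 9.14 and 9.37, so every knockdown value was lower and knockdown replicate 3 was nearest to the controls. The difference was -0.37 (interval -0.64 to -0.11, limma adjusted p = 0.0763). With array weights, a setting that called 5561 of 9969 genes, its limma adjusted p was 0.000824. Over the other alternatives it ranged from 0.0362 to 0.303. *Nlgn3*, found at both kinds of synapse, differed by -0.23 (interval -0.49 to 0.02). *Nlgn1*, a neuroligin of excitatory synapses, differed by 0.08 (interval -0.12 to 0.28) at a low control mean of 5.43.

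*Lrrtm3*, a leucine-rich ligand of neurexins, was the next nearest. Controls read 8.65, 8.18 and 8.43 and knockdown arrays 8.05, 7.97 and 8.12. The knockdown values lay close together below all controls, while the controls were spread over a wider range (SD 0.23 against 0.08), with control replicate 2 near the knockdown values. The difference was -0.37 (interval -0.66 to -0.08, limma adjusted p = 0.106), and it passed without control replicate 2 (-0.49, adjusted p = 0.041). The other LRRTM genes differed by between -0.08 and 0.11. The cerebellins *Cbln1* and *Cbln2*, secreted linkers between neurexins and glutamate receptors, differed by 0.04 and 0.14. *Cbln2* read 6.29, 6.18 and 6.08 in controls and 6.33, 6.32 and 6.31 after knockdown, without overlap, and the filter had removed it.

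The remaining adhesion groups held no call. The 5 SLITRK genes of this list, whose proteins bind receptor tyrosine phosphatases across the cleft, had differences of 0.06 to 0.18. The 2 that were tested did not pass. Control means of the SLITRK genes ran from 3.76 (*Slitrk6*) to 7.26 (*Slitrk5*), and flat low values cannot tell an unchanged gene from one not expressed. *Slitrk1* differed most of these 5, with 6.30, 5.88 and 5.92 in controls and 6.22, 6.34 and 6.07 after knockdown, so the groups overlapped (interval -0.12 to 0.47). A second cluster of *Slitrk2* pointed the other way (-0.29 where the cluster kept had 0.10). The 3 SALM genes of this list stayed between -0.05 and 0.05, at control means of 5.27 (*Lrfn5*) to 8.50 (*Lrfn1*). *Lrfn1* differed most of them, with 8.60, 8.52 and 8.37 in controls and 8.39, 8.45 and 8.49 after knockdown. Relatives from the further lists below differed by more: *Slitrk4* by 0.28 (interval 0.03 to 0.52), *Lrfn4* by 0.26 (interval 0.02 to 0.50) and *Lrfn3* by 0.13. Every knockdown value of *Slitrk4* and *Lrfn4* lay above the controls, but neither passed (limma adjusted p = 0.143 and 0.163). Of the SynCAM genes, *Cadm1* read 11.35, 11.37 and 11.46 in controls and 11.29, 11.18 and 11.23 after knockdown, a difference of -0.16 (interval -0.34 to 0.02), and *Cadm3* differed by 0.16 (interval -0.18 to 0.49).

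Of the 4 DLG scaffold genes, *Dlg2* fell and the other 3 did not pass. *Dlg2* encodes PSD-93, a close relative of PSD-95 (*Dlg4*), SAP102 (*Dlg3*) and SAP97 (*Dlg1*). Control arrays read 9.34, 9.48 and 9.13 and knockdown arrays 8.98, 8.64 and 8.76, so the groups were separate but control replicate 3 and knockdown replicate 1 lay close. The difference was -0.52 (SE 0.13, interval -0.81 to -0.24, limma adjusted p = 0.0323). *Dlg2* missed the threshold without control replicate 1 (adjusted p = 0.0838), 2 (0.0762) or 3 (0.071) and without knockdown replicate 2 (0.162), with differences between -0.62 and -0.44.

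*Dlg4*, the best known postsynaptic scaffold, was the gene whose arrays disagreed most within groups. It read 11.82, 11.06 and 11.61 in controls and 10.91, 11.03 and 11.77 after knockdown. Control replicate 2 lay with knockdown replicates 1 and 2, and knockdown replicate 3 lay with the other controls, so the groups overlapped (SD 0.39 and 0.46). The difference of -0.26 had an interval from -0.72 to 0.20 (limma adjusted p = 0.455), too wide to tell a fall like that of *Dlg2* from no change. *Dlg1* (-0.20, interval -0.45 to 0.06) and *Dlg3* (-0.18, interval -0.50 to 0.13) did not pass.

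**Figure D2:**
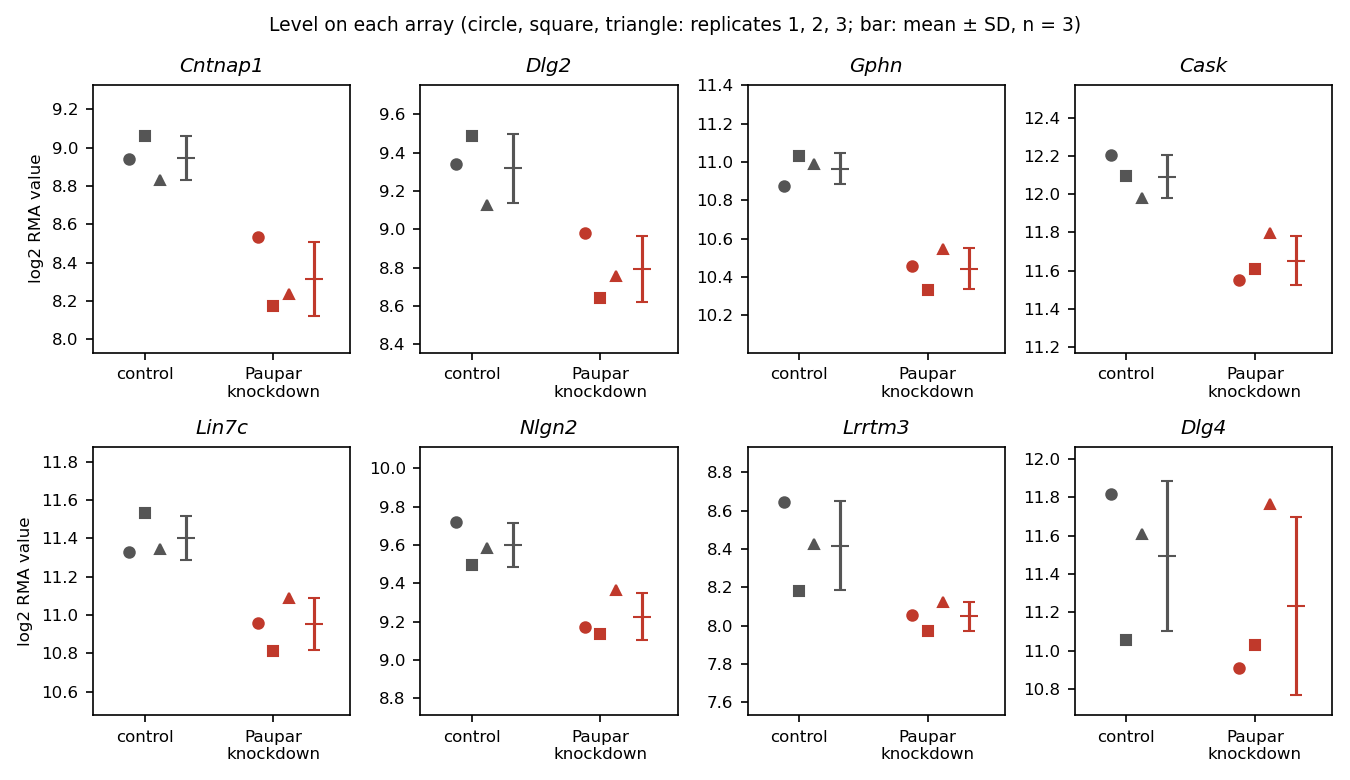
Log2 RMA value (y axis, spanning the same width in every panel) on each control (grey) and *Paupar* knockdown (red) array for the 5 genes that fell and for *Nlgn2*, *Lrrtm3* and *Dlg4*; markers give replicates 1, 2 and 3 and bars the mean ± SD, n = 3. The groups are apart in every panel except that of *Dlg4*, where control replicate 2 (11.06) lies among knockdown values and knockdown replicate 3 (11.77) among control values.

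The layers beneath DLG held no call. Of the SAPAP genes, whose proteins bind DLG on one side and SHANK on the other, *Dlgap3* differed most, with 8.89, 8.71 and 8.86 in controls and 8.98, 8.997 and 9.19 after knockdown. Its knockdown values all lay above the controls (difference 0.24, interval 0.03 to 0.45), but the variance filter had removed it and its limma adjusted p in a fit to all genes was 0.213. *Dlgap1*, *Dlgap2* and *Dlgap4* differed by 0.12, 0.21 and -0.12. Of the SHANK genes, which encode the master scaffolds of the postsynaptic density, *Shank2* read 8.05, 7.64 and 7.71 in controls and 8.11, 7.92 and 7.87 after knockdown, with overlap (interval -0.13 to 0.45). Its other 2 clusters had differences of -0.04 and 0.28. *Shank1* and *Shank3* differed by -0.08 and 0.04.

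None of the 3 Homer genes, which tie SHANK to metabotropic glutamate receptors, passed the variance filter. *Homer2* read 7.01, 6.95 and 6.96 in controls and 7.11, 7.17 and 7.12 after knockdown, a small difference of 0.16 (interval -0.00910 to 0.33) with no overlap. A second cluster of *Homer2* pointed down (-0.31). *Homer1* and *Homer3* differed by -0.12 and -0.10.

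*Gphn*, which encodes gephyrin, the scaffold that anchors glycine and GABA receptors and also an enzyme of molybdenum cofactor synthesis found outside the nervous system, had tight replicates. Controls read 10.87, 11.03 and 10.99 and knockdown arrays 10.46, 10.33 and 10.55. Every knockdown value was at least as far from the nearest control as the knockdown arrays were from each other. The difference was -0.52 (SE 0.12, interval -0.77 to -0.27, limma adjusted p = 0.0202). It missed the threshold without control replicate 3 (adjusted p = 0.0924), knockdown replicate 1 (0.0741) or knockdown replicate 2 (0.12), with differences between -0.57 and -0.46.

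*Cask* and *Lin7c* encode partners in one complex, and both fell. CASK binds the carboxy end of neurexins, and LIN7 proteins bind CASK and carry a PDZ domain of their own. *Cask* read 12.20, 12.09 and 11.98 in controls and 11.55, 11.61 and 11.80 after knockdown. *Lin7c* read 11.33, 11.53 and 11.35 in controls and 10.96, 10.81 and 11.09 after knockdown. Both pairs of groups were separate, and in both genes knockdown replicate 3 was nearest to the controls. The differences were -0.44 for *Cask* (SE 0.12, interval -0.70 to -0.18, limma adjusted p = 0.0447) and -0.45 for *Lin7c* (SE 0.12, interval -0.71 to -0.18, adjusted p = 0.0428).

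These were the least firm calls. *Cask* passed only without knockdown replicate 3 (adjusted p = 0.0226) among the 6 fits with one array left out, and had adjusted p values of 0.0702 to 0.185 in the others. *Lin7c* likewise passed only without knockdown replicate 3 (0.024), with 0.0661 to 0.212 in the others. Both also missed the threshold once arrays were centred on their medians (0.0521 and 0.0556) or fitted with the replicate number as a block (0.062 and 0.057). The direction was the same in every one of these fits. Of the other LIN7 genes, *Lin7b* differed by 0.17 (interval -0.10 to 0.44, adjusted p = 0.406) and *Lin7a* by 0.01 (interval -0.16 to 0.18, not tested). Their control means were 7.92 and 5.89, beside 11.40 for *Lin7c*. Without a detection call, a flat low value such as that of *Lin7a* cannot tell an unchanged gene from one not expressed. *Apba1*, which encodes the third partner Mint1, differed by -0.46, but its knockdown arrays were far apart (7.69, 7.65 and 8.39 against 8.59, 8.10 and 8.40 in controls, adjusted p = 0.138).

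**Figure D3:**
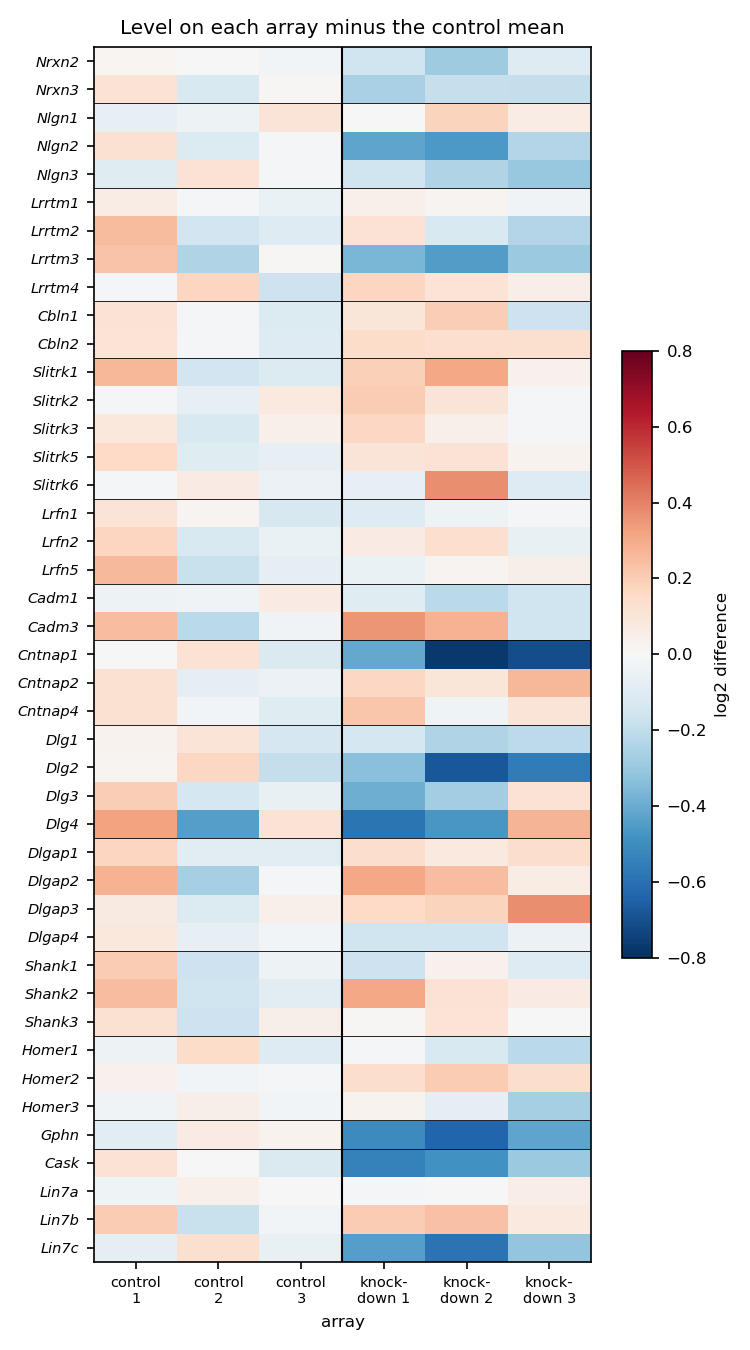
Log2 level of each of the 43 genes (rows, in order of role) on each array (columns) minus the mean of the 3 control arrays; red is higher and blue lower. *Cntnap1*, *Dlg2*, *Gphn*, *Cask* and *Lin7c* are blue on all 3 knockdown arrays, while *Dlg4* is blue on control replicate 2 and on knockdown replicates 1 and 2 only.

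Of the 5 genes that fell, 3 had an annotated start in the RefSeq promoter table (GRCm38.p6), and the bases before one start of each are shown so that the regions of these genes can be set side by side. The windows are chr2:109890628-109890877 for *Lin7c*, chr12:78226405-78226654 for *Gphn* and chr7:91090536-91090785 for the first listed of 3 starts of *Dlg2*, each 250 bases on the + strand that end just before the start. Capitals mark matches on either strand to the GC box (GGGCGG), the CCAAT box (spelled as named), the TATA box (TATAAA), the cyclic AMP element (TGACGTCA), the E2F element (TTTNGCGC) or the homeodomain core (TAATTA).
Lin7c: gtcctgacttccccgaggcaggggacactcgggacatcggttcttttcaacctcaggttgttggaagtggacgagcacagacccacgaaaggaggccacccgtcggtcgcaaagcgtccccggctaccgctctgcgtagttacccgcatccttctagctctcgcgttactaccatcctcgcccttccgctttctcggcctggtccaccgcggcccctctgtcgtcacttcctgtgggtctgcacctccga
Gphn: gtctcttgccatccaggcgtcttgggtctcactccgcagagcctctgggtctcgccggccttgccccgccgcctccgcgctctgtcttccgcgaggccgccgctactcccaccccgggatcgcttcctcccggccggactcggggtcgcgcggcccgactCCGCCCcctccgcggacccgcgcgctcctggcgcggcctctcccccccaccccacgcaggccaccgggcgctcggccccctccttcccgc
Dlg2: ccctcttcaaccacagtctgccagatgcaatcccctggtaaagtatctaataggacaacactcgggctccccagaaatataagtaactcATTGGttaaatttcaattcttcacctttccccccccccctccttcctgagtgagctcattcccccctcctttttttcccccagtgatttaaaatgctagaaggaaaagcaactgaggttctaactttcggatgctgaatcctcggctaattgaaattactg

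The *Lin7c* window held none of these letters, the *Gphn* window 1 GC box and the *Dlg2* window 1 CCAAT match. The *Gphn* window was 77.2% G and C with 34 CG steps, the *Lin7c* window 62% with 22, and the *Dlg2* window 45.2% with 3, where the median over all 32851 starts was 52.4%. Over the 47 starts of 29 of the 43 genes, a GC box was found at 31.9% (32.7% of all starts), CCAAT at 19.1% (33.8%) and TATAAA at 8.51% (12.4%). TAATTA was found at 0 of the 47 (4.84% of all starts), and the cyclic AMP and E2F letters at 1 start each (1.55% and 1.13% of all starts). A match is a run of letters in this window only.

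Other genes of synaptic adhesion and scaffolds were read from a pair of further lists. Of 57 further adhesion genes and ligands, 54 were measured and 25 tested, and 2 fell (8%) and none rose. Of 46 further synaptic scaffold and signalling genes, not all of them postsynaptic, 42 were measured and 25 tested, and 4 fell (16%) and none rose. Of all tested genes, 5.16% fell and 2.39% rose, so the share of the adhesion list was near that of all genes. At an unadjusted p under 0.05, 18 genes of both lists were lower (18.8%) and 5 higher (5.21%), beside the 7.89% and 6.03% of all genes, and the median over the 96 measured genes was 0.00220.

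*Tanc2*, which encodes a scaffold that binds PSD-95, fell most, and it fell by more than any of the 43 genes above. Controls read 10.62, 10.79 and 10.61 and knockdown arrays 9.73, 9.53 and 9.81, a 1.98-fold lower level (difference -0.98, SE 0.12, limma adjusted p = 0.00144). *Rapgef2*, an activator of the small GTPase Rap that binds membrane scaffolds, was 1.56-fold lower (11.50 ± 0.03 to 10.85 ± 0.09, n = 3 per group, limma adjusted p = 0.00587). These 2 genes passed whichever array was left out, which none of the 5 members that fell did.

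*Camk2a*, the kinase of the postsynaptic density, was 1.61-fold lower (limma adjusted p = 0.0264), and *Lzts1*, a postsynaptic coiled-coil protein, 1.48-fold lower (adjusted p = 0.0477). Their arrays were spread, with 9.69, 9.13 and 9.28 against 8.49, 8.54 and 9.01 for *Camk2a*, and both missed the threshold when all genes were tested without the filter (0.0653 and 0.099). *Ntrk3*, a neurotrophin receptor that is also a synaptic adhesion protein, was 1.41-fold lower, from 9.20 ± 0.05 to 8.70 ± 0.06 (n = 3 per group, limma adjusted p = 0.0209). *Ntrk3*, *Nfasc*, *Camk2a* and *Lzts1* all missed the threshold when control replicate 3, knockdown replicate 1 or 2 was left out (highest adjusted p = 0.192), and all but *Ntrk3* also missed it without control replicate 1.

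Some markers of the cell line moved with these falls. Of 16 measured neuroblast genes 12 were tested, of which 4 fell (*Th*, *Dbh*, *Chrna3* and *Chgb*) and none rose. Those 4 were 33.3% of the tested, beside 5.16% of all tested genes. Of the 16, 13 were lower and 3 higher, where 41.6% of all genes were lower. *Insm1* and *Gata2* were higher on every knockdown array than on any control (differences 0.27 and 0.24, limma adjusted p = 0.166 and 0.197). The mean level of the 16 was 11.50 to 11.55 on the control arrays and 11.25 to 11.38 on the knockdown arrays. Of 13 measured glia genes 3 were tested and the filter had removed 10, and none of the 3 passed in limma (of the 13, 1 had an unadjusted p under 0.05 and was higher), with mean levels of 6.59 to 6.77 and 6.72 to 6.79. Of 11 measured genes of cortical neurons 3 were tested, of which *Camk4* fell, from 9.23 to 8.80 (limma adjusted p = 0.0467). Of the 11, 2 were lower and 9 higher. *Slc17a6* differed by 0.35, with every knockdown value above the controls, but did not pass (adjusted p = 0.0961). The mean levels were 6.52 to 6.66 and 6.62 to 6.71. The part of these shifts in the falls of the synaptic genes was not tested.

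**Figure D4:**
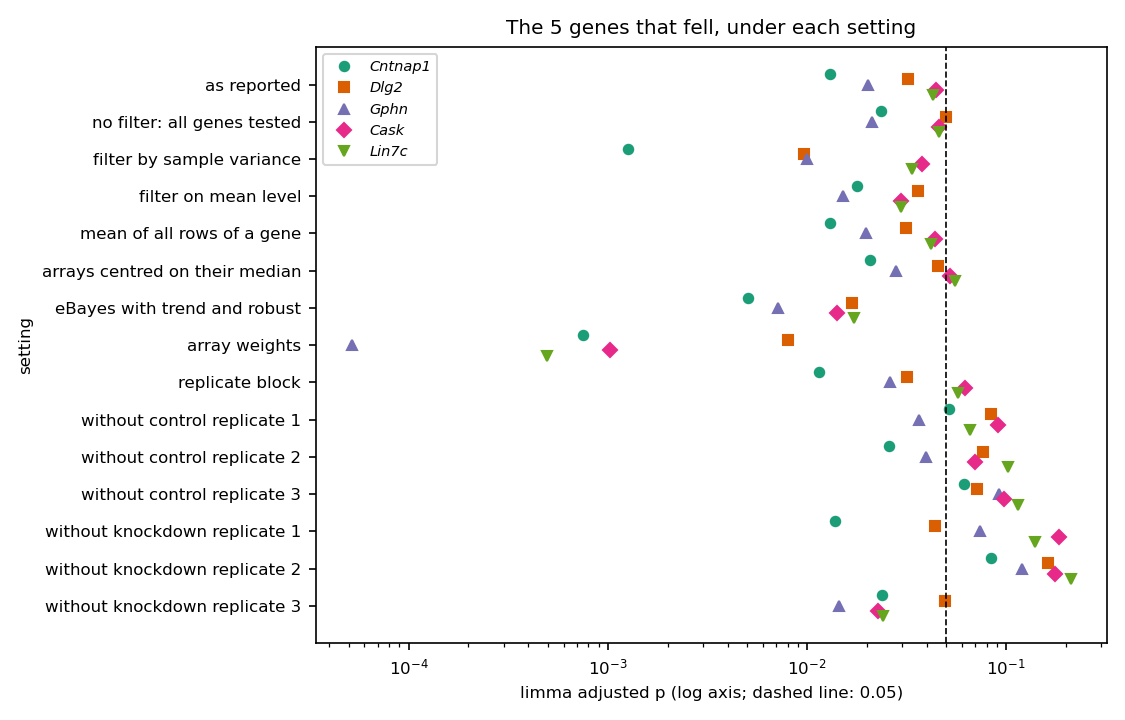
Adjusted p from limma (x axis, log scale) of the 5 genes that fell, under the reported setting and each alternative (y axis); the dashed line marks 0.05. Points to the right of it are missed calls: all 5 genes miss the threshold without control replicate 3 or knockdown replicate 2, and none does without knockdown replicate 3.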

How the data were processed

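RNA from 3 control and 3 *Paupar* knockdown N2A cultures (200 ng per sample) was hybridised to Affymetrix Mouse Gene 1.0 ST arrays. The authors background corrected, quantile normalised and summarised the arrays by RMA, and the deposited values are log2 expression per transcript cluster, with tool versions and genome build unstated in the labels and the paper. The normalisation forces all arrays to one distribution, so a shift common to most genes cannot be seen. The annotation gave 21789 of 35556 clusters exactly 1 symbol, and the cluster with the highest mean per gene was kept (19938 genes). The study filtered on variance before testing. Here genes were ranked by their interquartile range across all 6 arrays, the bottom 50% were dropped, and the other 9969 were tested by the empirical Bayes fit of limma 3.58.1 under R 4.3.3, Benjamini-Hochberg adjusted, threshold 0.05. Dropped genes took their differences and intervals from an unfiltered fit. Folds come from differences of mean log2 values. P-values set the group difference against the spread between arrays within the groups, which limma draws toward a value common to the genes fitted.

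The genes and lists (adhesion, scaffolds, neuroblast, glia and cortical neuron markers) were chosen with earlier results of these data known. Values on every array are given for genes that fell, for the 2 nearest to the threshold and for the gene with the largest difference in each role group without a call, and from the other lists up to 4 changed genes; other genes, among them *Dlg4*, *Apba1*, *Cntn1* and *Nrxn2*, were named after their values were seen. Alternatives were other filters, cluster averages, median centring, a trended robust prior, array weights, a replicate block and leaving out each array. The fit was tested on simulated data.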

Additional observations from a re-analysis of the deposited data

How the results depend on the processing

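The 5 genes that fell kept their direction in all 14 alternatives. The same 5 were called with no filter, a filter by sample variance, averaged clusters or a trended robust prior, and a filter on mean level added *Nlgn2* (6 called). Median centring left 3 of them. With one array left out the count ranged from 0 to 6. It was 0 without control replicate 3 or knockdown replicate 2 (9 and 8 of the 43 genes had an unadjusted p under 0.05 in the fit to all genes, against 10 with every array), 1 without control replicate 1 (*Gphn*), 2 without knockdown replicate 1 (*Cntnap1* and *Dlg2*), 3 without control replicate 2 and 6 without knockdown replicate 3. The other synaptic genes called ranged from 2 to 10 and all genes from 112 to 1239 in those fits, the highest counts being without knockdown replicate 3. Array weights called 17 of the 43 genes (11 lower, 6 higher), 39 other synaptic genes and 5561 of 9969 genes, and the cause was not tested. With the replicate number as a block 3 genes were called (*Cntnap1*, *Dlg2* and *Gphn*), 7 other synaptic genes and 680 genes in all. The labels do not say whether equal numbers mark paired samples. Deviations from the group means of same-numbered arrays correlated at -0.288, 0.0624 and 0.0751 across genes. Those of differently numbered arrays correlated at between -0.316 and 0.374. Deviations within a group are tied to one another, so these values cannot settle whether the samples were paired. With 3 arrays a group, a gene that missed the threshold may still differ, as its interval shows.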

Other observations

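*Dlg4* and *Apba1* shared an arrangement of arrays that follows neither group. In both, control replicate 2 was the lowest control (11.06 and 8.10) and knockdown replicate 3 the highest knockdown array (11.77 and 8.39), near the controls. *Camk2a* and *Lzts1* were lowest among controls on the same array (9.13 and 8.64) and highest among knockdown arrays on the same array (9.01 and 8.65). The arrangement was not particular to these 4 genes. Among others, *Dlg3* (7.88 and 8.13), *Camk2b* (8.97 and 9.36) and *Mpp2* (9.66 and 9.73) had the same lowest control and highest knockdown array. Across all genes, deviations of control replicate 2 and knockdown replicate 3 from their group means correlated at -0.316. The genes named here were picked after their values were seen, and no test was made of the likeness.

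In the 9969 genes tested, 514 fell and 238 rose. Of the 15 differences among the 43 genes with no overlap between groups, 7 had an interval that reached 0 (*Nrxn2*, *Nrxn3*, *Nlgn3*, *Cadm1*, *Cbln2*, *Dlg1* and *Homer2*).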
